A study of Mus musculus with 6 samples.

Results

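Transcripts of 10 chemokine ligand genes were followed in Cxcl12-abundant reticular (CAR) cells, stromal cells of the bone marrow that carry a high level of Cxcl12. The genes, Cxcl12, Cxcl10, Cxcl9, Cxcl14, Cxcl1, Cxcl16, Cx3cl1, Ccl2, Ccl7 and Ccl19, were taken by name, and all 10 of 10 had a probe set that named the gene alone, out of 19938 genes with a value. Affymetrix mogene ST arrays were run on RNA of 2 sorted populations, CAR cells targeted by Dmp1-Cre and CAR cells it left untargeted, with 3 arrays each and 6 in all. All mice were C57BL/6, carried the genotype Dmp1-Cre Cxcl12-gfp/+ and were 7 weeks old, and the marrow came from femur and tibia, so both groups share the Cre transgene and the heterozygous gfp allele of Cxcl12 and differ, by label, in whether Cre had acted in the sorted cells. Dmp1, whose regulatory sequence drives this Cre, is best known from osteocytes and mature osteoblasts, and the labels name neither the reporter of Cre activity nor the sort gates. The labels call the arrays of a group biological replicates, and the design text has 1 mouse for each sample from 3 mice, without saying which arrays share a mouse.

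Chemokines are small secreted proteins that guide migrating cells through receptors coupled to G proteins. Their families are named for the spacing of the first cysteines: CXC (Cxcl), CC (Ccl) and CX3C, of which Cx3cl1 is a membrane-bound member that can be shed. In marrow, Cxcl12 acts through Cxcr4 to hold stem cells, B cell precursors and neutrophils near CAR cells, Ccl2 and Ccl7 mobilise monocytes through Ccr2, and Cxcl9 and Cxcl10 are induced by interferon and attract T and NK cells through Cxcr3.

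The arrays' median intensities ran from 79.4 to 87.5, and their log2 values correlated across genes at 0.955 to 0.981. Dmp1 stood at 9.89 to 11.28 on the targeted arrays and at 6.91 to 7.51 on the non-targeted ones, in the order of the labels. Of 8 CAR cell markers, all 8 were above the filter on dim genes. The leukocyte antigen gene Ptprc and the endothelial gene Pecam1 were below it. Of the lists these 2 genes belong to, 3 of 5 general leukocyte and 3 of 8 endothelial markers were above it. Xist was high on the replicate 1 array of both groups (11.31 and 12.00) and at 5.64 to 5.88 on the other arrays, so each group held 1 array with high Xist. Targeted replicate 1 stood apart in other cells' markers. The summed intensity of 9 neutrophil markers was 909 there and 7764 to 13590 on the other arrays, and that of 6 fibroblast and periosteal markers was 13640 there and 4783 to 6041 elsewhere.

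Among the 10 ligands, Cxcl10, Cx3cl1 and Ccl2 were lower on every targeted array than on any non-targeted array, while Cxcl12 itself, Cxcl14, Cxcl1, Cxcl16, Ccl7 and Ccl19 overlapped between the groups, as did Cxcl9. The difference was 2.52-fold for Cxcl10, 2.18-fold for Cx3cl1 and 1.54-fold for Ccl2. None passed the threshold over all genes. The difference was below 0 for 8 of the 10 genes (6 after quantile or cyclic loess scaling), against 51.1% of the 13292 genes tested. The median log2 difference was -0.22 for the 10 against -0.01 for all genes tested. The targeted arrays lay below all non-targeted ones for 3 of 10, against 5.76% of all genes tested, and above them for 0 of 10, against 3.32% (9.07% without overlap in either direction). In bulk samples of this kind, fewer cells that express a gene and less RNA per cell cannot be told apart.

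All differences are targeted minus non-targeted on the log2 scale and were fitted with limma, with p-values adjusted by the Benjamini-Hochberg method over all 13292 genes. With an adjusted p under 0.05, 0 of the 10 genes and 0% of all genes tested were called. At an unadjusted p under 0.05, 3 of the 10 were lower and 0 higher, against 3.42% and 1.35% of all genes tested. The number of arrays, 3 per group, limits the precision. Each limma p sets a difference against the spread between these arrays, moderated by the spread of all genes tested.

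**Figure D1:**
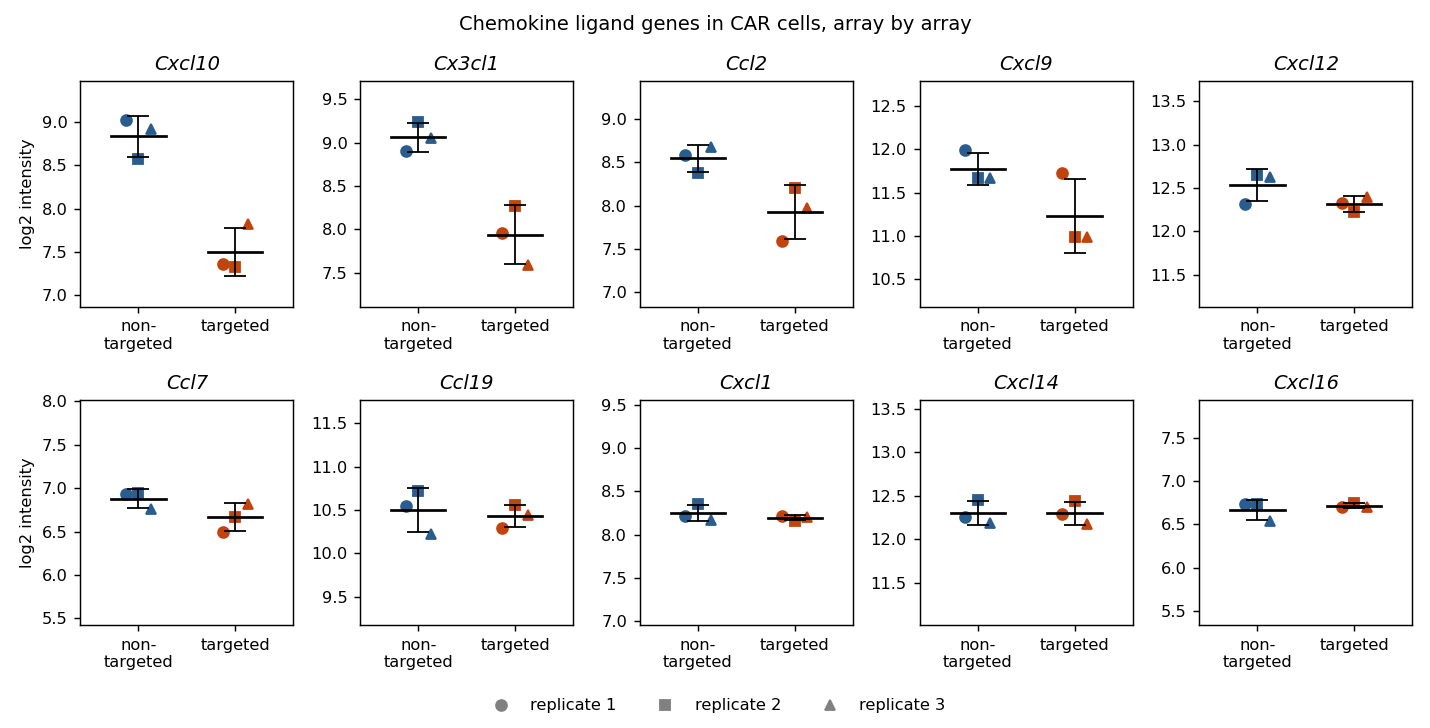
Log2 intensity (y axis, each panel spanning the same range of log2 units) of the 10 chemokine ligand genes on the 3 non-targeted (blue) and 3 targeted (orange) arrays, with marker shapes for the replicate number, a wide bar for the group mean and whiskers for the SD. The arrays of the groups are separate for Cxcl10, Cx3cl1 and Ccl2 and overlap for the other genes.

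Cxcl10 encodes an interferon-inducible ligand of Cxcr3. Its log2 intensities on the non-targeted arrays were 9.02, 8.57 and 8.92, and on the targeted arrays 7.36, 7.32 and 7.82 (replicates 1, 2 and 3). Every targeted array was low, and a gap of 0.75 separated the highest targeted from the lowest non-targeted array. The means were 7.50 ± 0.28 with targeting and 8.84 ± 0.23 without (SD, n = 3 each). The log2 difference was -1.33 (SE 0.20, 95% interval -1.80 to -0.86), with a limma adjusted p of 0.701 over all genes. By its unadjusted p, 0.000202 in limma, Cxcl10 stood second among all genes tested, behind Dmp1, and first among the 6793 genes that were lower in targeted cells. By the size of the difference it was number 21 among those genes, of which 55 (0.414% of all genes tested) were at least 2-fold lower. Leaving out each array in turn gave differences from -1.49 to -1.24. The ranks of Cxcl10 by p are those of the main fit and did not hold under all settings. With quantile normalization, with cyclic loess and without targeted replicate 2, Cx3cl1 had a smaller unadjusted limma p. Cxcl10 was then not first among the lower genes. The RefSeq annotation places Cxcl10 within the span of the coding gene Art3, whose own probe set was dim, at 4.21 to 4.83 on all arrays.

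Cxcl9 is the annotated coding gene next to Cxcl10 on chromosome 5, outside the span of Art3, and encodes another ligand of Cxcr3. It was at 11.99, 11.67 and 11.66 on the non-targeted arrays and at 11.72, 10.98 and 10.99 on the targeted ones. Targeted replicates 2 and 3 were low, whereas targeted replicate 1 lay within the range of the non-targeted arrays. The means were 11.23 ± 0.42 and 11.78 ± 0.19 (SD, n = 3 each). The log2 difference was -0.54 (SE 0.23, 95% interval -1.09 to 0.0002; limma adjusted p = 0.9998), and without targeted replicate 1 it was -0.79. Leaving out each of the other arrays gave -0.60 to -0.42.

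The differences of the 2 neighbours were compared through their ratio. The log2 ratio of Cxcl10 to Cxcl9 was lower by 0.79 (SE 0.36) in targeted cells, running from -4.36 to -3.17 on the targeted and from -3.10 to -2.75 on the non-targeted arrays. An exact two-sided permutation test gave p = 0.1, the smallest that 3 arrays against 3 allow (adjusted p = 0.167 over the 5 pairs of genes compared in this way). The difference of the ratio was -0.47 without targeted replicate 1, -0.69 to -1.07 without each other array and -0.49 on replicates 2 and 3 alone.

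Upstream sequence was at hand for 7 of the 10 genes (RefSeq, GRCm38.p6). Ccl2, Ccl7 and Cxcl16 had none and were not searched. The 250 bases before the start are shown for the interferon-inducible neighbours Cxcl10 and Cxcl9, for Cx3cl1, and for Cxcl12 and Cxcl1, whose groups overlapped. Capitals mark matches on either strand to the interferon-stimulated response element GAAANNGAA, the gamma-activated site TTCNNNGAA or the pattern GGGANNTNC. The last is a loose form of the site that binds NF-kB and is called the kappa B motif here. Binding at any match was not tested. The windows are chr5:92348890-92349139 on the minus strand, chr5:92328080-92328329 on the minus strand, chr8:94771930-94772179 on the plus strand, chr6:117168285-117168534 on the plus strand and chr5:90890995-90891244 on the plus strand, and are written in the direction of the gene.
Cxcl10: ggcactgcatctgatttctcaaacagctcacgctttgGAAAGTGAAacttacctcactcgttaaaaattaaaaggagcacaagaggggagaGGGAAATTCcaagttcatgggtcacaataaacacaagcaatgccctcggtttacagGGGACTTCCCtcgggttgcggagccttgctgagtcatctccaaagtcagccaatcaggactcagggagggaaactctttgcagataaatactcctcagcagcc
Cxcl9: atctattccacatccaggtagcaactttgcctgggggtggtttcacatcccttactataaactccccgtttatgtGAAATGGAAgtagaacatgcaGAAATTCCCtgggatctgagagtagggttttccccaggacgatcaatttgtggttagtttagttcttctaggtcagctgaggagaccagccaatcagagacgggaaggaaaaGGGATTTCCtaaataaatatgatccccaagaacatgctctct
Cx3cl1: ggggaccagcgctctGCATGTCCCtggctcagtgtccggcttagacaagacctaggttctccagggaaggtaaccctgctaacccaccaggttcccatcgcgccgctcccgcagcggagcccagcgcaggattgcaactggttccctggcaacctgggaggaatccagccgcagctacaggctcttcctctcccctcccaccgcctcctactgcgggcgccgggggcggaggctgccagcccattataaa
Cxcl12: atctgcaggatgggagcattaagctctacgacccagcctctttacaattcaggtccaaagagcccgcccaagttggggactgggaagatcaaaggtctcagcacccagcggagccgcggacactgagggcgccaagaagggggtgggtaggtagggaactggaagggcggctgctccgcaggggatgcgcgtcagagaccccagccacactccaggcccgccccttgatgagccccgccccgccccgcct
Cxcl1: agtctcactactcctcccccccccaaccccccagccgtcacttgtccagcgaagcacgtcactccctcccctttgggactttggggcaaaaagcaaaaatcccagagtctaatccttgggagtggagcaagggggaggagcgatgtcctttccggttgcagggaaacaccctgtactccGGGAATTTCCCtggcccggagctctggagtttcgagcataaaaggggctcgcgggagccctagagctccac

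The Cxcl10 window held 1 match to the interferon-stimulated response element, 213 to 205 bases before the start, and 3 matches to the kappa B motif, 1 at 159 to 151 bases and 2 that overlap on opposite strands, from 103 to 94 bases. The Cxcl9 window held 1 match to the interferon-stimulated response element, at 175 to 167 bases, and 2 to the kappa B motif, at 154 to 146 and 42 to 34 bases. Cx3cl1 had 1 kappa B match at 235 to 227 bases, and Cxcl1 had 2 that overlap on opposite strands, from 71 to 61 bases. None of the 3 motifs matched in the Cxcl12 window. Of the windows not shown, Ccl19 held 1 match to the interferon-stimulated response element, and Cxcl14 held 1 to that element and 1 to the gamma-activated site. Among 32851 upstream windows of the same length, 7.13% held the interferon-stimulated response element, 7.02% the gamma-activated site and 12.5% the kappa B motif. Matches were present in genes whose groups were separate (Cxcl10 and Cx3cl1) and in genes whose groups overlapped (Cxcl9, Cxcl1, Cxcl14 and Ccl19).

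Cx3cl1, fractalkine, tethers and attracts monocytes and other cells that carry Cx3cr1. It was at 8.90, 9.23 and 9.05 on the non-targeted arrays and at 7.96, 8.26 and 7.59 on the targeted ones. All targeted arrays were low, and a gap of 0.63 separated the groups. The means were 7.94 ± 0.34 with targeting and 9.06 ± 0.17 without (SD, n = 3 each). The log2 difference was -1.12 (SE 0.21, 95% interval -1.60 to -0.64; limma adjusted p = 0.701), number 12 among all genes tested by unadjusted p. It ran from -1.29 to -0.95 when each array was left out in turn. In the annotation Cx3cl1 lies between Ccl22 and Ccl17, which encode ligands of Ccr4. Ccl17 was also lower on every targeted array, at 5.78 to 6.09 against 6.18 to 6.38 (log2 difference -0.35, SE 0.15). Its targeted mean of 5.92 was under the dim filter of 6.00, so it entered the test through the non-targeted arrays. Ccl22 overlapped, at 6.31 to 6.64 against 6.23 to 6.44.

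Ccl2 encodes a monocyte attractant that acts through Ccr2. The non-targeted arrays were at 8.58, 8.38 and 8.68 and the targeted arrays at 7.59, 8.21 and 7.97. The targeted arrays were all lower, but the gap to the non-targeted ones was only 0.17, less than the SD of 0.31 among the targeted arrays. The means were 7.92 ± 0.31 and 8.55 ± 0.15 (SD, n = 3 each), a log2 difference of -0.62 (SE 0.20, 95% interval -1.08 to -0.17; limma adjusted p = 0.934). Without targeted replicate 1, the lowest array, the difference was -0.46, and it was -0.44 on replicates 2 and 3 alone.

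Ccl7, the coding gene beside Ccl2 on chromosome 11 and another ligand of Ccr2, was close to the dim filter at a log2 intensity of 6.00. It was at 6.50 to 6.82 on the targeted and 6.76 to 6.95 on the non-targeted arrays, which overlapped. Its log2 difference was -0.21 (SE 0.16, 95% interval -0.57 to 0.15), and -0.13 without targeted replicate 1 and -0.10 on replicates 2 and 3 alone. The log2 ratio of Ccl2 to Ccl7 overlapped between the groups, and its difference of -0.41 (SE 0.20) had an exact two-sided permutation p of 0.2.

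Cxcl12, the gene that defines CAR cells, was at 12.32, 12.65 and 12.63 on the non-targeted arrays and at 12.32, 12.22 and 12.40 on the targeted ones. Non-targeted replicate 1 lay among the targeted arrays, and the groups overlapped. The log2 difference was -0.22 (SE 0.16, 95% interval -0.58 to 0.15; limma adjusted p = 0.9998), and -0.33 on replicates 2 and 3 alone. The log2 ratio of Cxcl10 to Cxcl12 was lower in targeted cells by 1.12 (SE 0.25) and that of Cx3cl1 to Cxcl12 by 0.91 (SE 0.25). In both ratios the groups did not overlap, and the exact two-sided permutation p was 0.1 for each, the smallest possible (adjusted p = 0.167). Cxcl10 and Cx3cl1 had separate arrays by themselves, so the separate ratios are not an independent result. For Ccl2 to Cxcl12 the ratio overlapped, with a difference of -0.41 (SE 0.26) and an exact permutation p of 0.2. That difference was -0.24 without targeted replicate 1 and -0.11 on replicates 2 and 3 alone.

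The remaining ligands hardly differed. Cxcl14, a chemokine of stroma and epithelia, had means of 12.30 ± 0.13 with targeting and 12.30 ± 0.14 without (SD, n = 3 each), with a log2 difference of 0.0005 and a 95% interval from -0.36 to 0.36. Cxcl1, a neutrophil attractant that acts through Cxcr2, was at 8.16 to 8.22 on the targeted and 8.17 to 8.36 on the non-targeted arrays, with an interval of the difference from -0.38 to 0.27. Cxcl16, a membrane-bound ligand of Cxcr6, was near the dim filter, at 6.70 to 6.74 against 6.53 to 6.74, with an interval from -0.28 to 0.38. Ccl19, a ligand of Ccr7 known from lymph node stroma, was at 10.30 to 10.56 against 10.23 to 10.72, with an interval from -0.48 to 0.34. The Ccl19 values are uncertain in their source, since 5 probe sets carry its name, 2 of them with identical values, and the annotation lists 3 Ccl19 pseudogenes. The log2 differences of the 5 probe sets ran from -0.12 to 0.02. The direction of Cxcl14, Cxcl1, Cxcl16 and Ccl19 turned under some settings, and no direction is given for them.

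**Figure D2:**
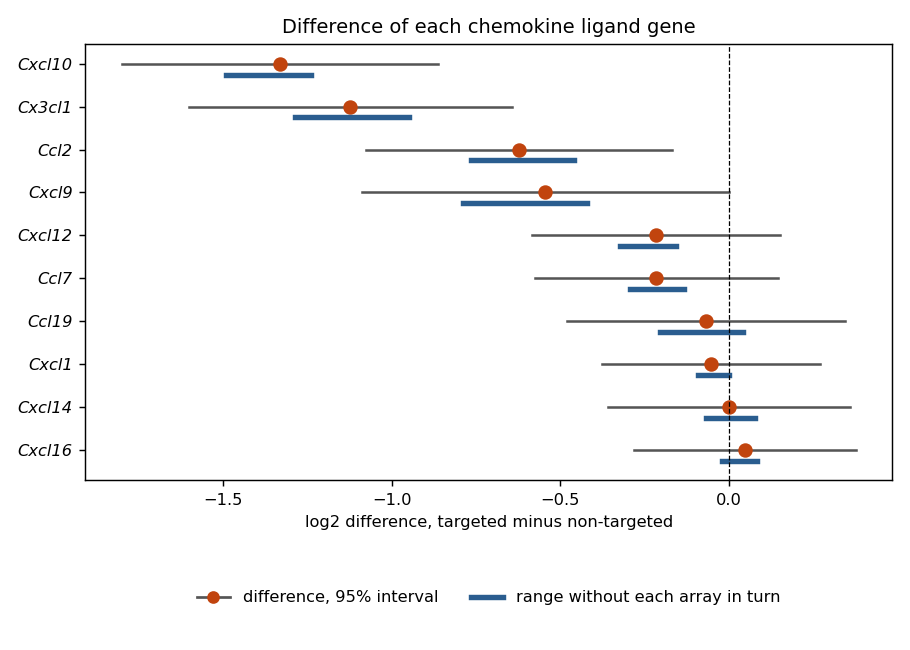
Log2 difference, targeted minus non-targeted (x axis), of each chemokine ligand gene (rows, sorted), with the 95% interval of the limma fit as a grey line and the range over fits that each left out 1 array as a blue bar. The intervals of Cxcl10, Cx3cl1 and Ccl2 lie below 0, that of Cxcl9 ends at 0.0002, and the other 6 span 0.

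**Figure D3:**
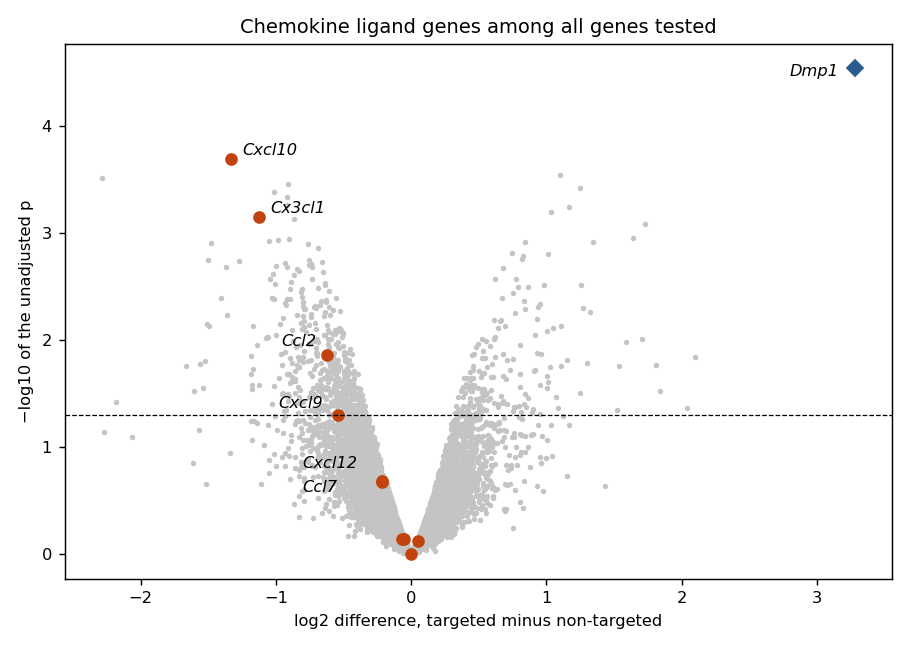
The −log10 of the unadjusted limma p (y axis) against the log2 difference, targeted minus non-targeted (x axis), for all 13292 genes tested (grey), the 10 chemokine ligand genes (orange) and Dmp1 (blue diamond), with a dashed line at a p of 0.05. Cxcl10, at -1.33, is the highest point on the side of lower genes, and no gene passed after adjustment.

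Genes whose profile over the 6 arrays was nearest to each of the 4 more variable ligands were found by the root mean square difference of centred log2 values. For Cxcl10 they were Ifitm1, an interferon-inducible membrane protein gene (0.27 log2 units), and Zfp9 (0.29). Ifitm1 was at 10.29 to 10.57 on the targeted and 11.20 to 11.55 on the non-targeted arrays. For Cx3cl1 they were Qpctl (0.15) and Pla1a (0.16), for Ccl2 Dicer1 and Prrg2 (0.08 each), and for Cxcl9 Rab21 (0.10) and Nid2 (0.11). The pair nearest to Cxcl9 overlapped between the groups, as Cxcl9 did. Because these genes were picked for their likeness to a ligand, a shared overlap or separation is no further result.

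Chemokine receptor genes were described from a list of 23. Of these, 22 had a value, 12 were dim and 10 were tested, of which 6 were higher and 4 lower, 0 were called and 0 had separate arrays, against 9.07% of all genes tested (median log2 difference 0.01). Cxcr4, the receptor of Cxcl12, was at 8.23 to 9.08 on the targeted and 8.64 to 9.19 on the non-targeted arrays. Cxcr3 was at 6.13 to 6.64 against 6.25 to 6.52, and Cx3cr1 at 6.99 to 7.42 against 6.98 to 7.58. Ccr2, Cxcr6 and the Cxcl12 scavenger receptor Ackr3 were dim. Among the 12 dim receptor genes, Cxcr6 and Cxcr5 had all targeted arrays higher and the others overlapped. Cxcr6 was at 4.68 to 4.81 against 4.48 to 4.54, and Cxcr5 at 4.52 to 4.60 against 4.25 to 4.46. Both lay well under the dim filter of 6.00 and were not tested, so no change is read from them.

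Other chemokine ligands were described from a list of 26, of which 25 had a value and 16 were tested. In limma 0 were called, 9 were higher and 7 lower, and the median log2 difference was 0.03. Ccl9, a myeloid cell attractant, was lower on every targeted array, at 6.46, 7.11 and 7.20 against 7.44 to 7.50 (log2 difference -0.54, SE 0.22), and Ccl17 was the other gene with separate arrays, 2 of 16 in all, near the 9.07% of all genes tested. Cxcl13, a B cell attractant, was at 6.19 to 6.41 on the targeted arrays and at 8.73, 6.04 and 7.04 on the non-targeted ones. Non-targeted replicate 1 was the high array behind its difference of -0.94 (SE 0.58). Cxcl11, which the annotation gives as a transcribed pseudogene in this strain's genome, was dim. Among the proteases known to cut chemokines, 6 of 9 were tested and 0 called, with 4 higher and 2 lower. Adam10 and Adam17, which shed Cx3cl1 and Cxcl16, differed by -0.01 (SE 0.29) and 0.06 (SE 0.26), and Mmp2 was at 10.11 in targeted replicate 1 and at 7.91 to 8.51 on the other arrays.

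Cxcl9 and Cxcl10 respond to interferon. Ligands known to respond to NF-kB signalling include genes with separate arrays (Cxcl10, Cx3cl1 and Ccl2) and Cxcl1, whose groups overlapped. Other genes of the interferon response were mostly lower by small amounts. Of 22 listed, 18 had a value and 16 were tested, 13 lower and 3 higher, and 0 were called (median of the log2 differences -0.17). Rsad2, an antiviral enzyme gene, was at 6.49 to 6.71 against 6.72 to 6.88, and Irf1, a transcription factor induced by interferon, at 8.15 to 8.38 against 8.38 to 8.59. These were the 2 of 16 whose arrays did not overlap, with log2 differences of -0.20 and -0.19, a count near the 9.07% of all genes tested. Among NF-kB response genes 15 of 19 were tested, 3 higher and 12 lower, with a median of -0.12 and 0 called. Relb, an NF-kB subunit gene, was at 7.23 to 7.38 against 7.57 to 7.79 (log2 difference -0.34, SE 0.15). Lif, a cytokine gene, was the only gene of that list with all targeted arrays higher, at 6.03 to 6.44 against 5.84 to 6.00, and it passed the dim filter through the targeted arrays alone (non-targeted mean 5.90). With Relb, 2 of 15 had separate arrays, near the 9.07% of all genes tested.

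**Figure D4:**
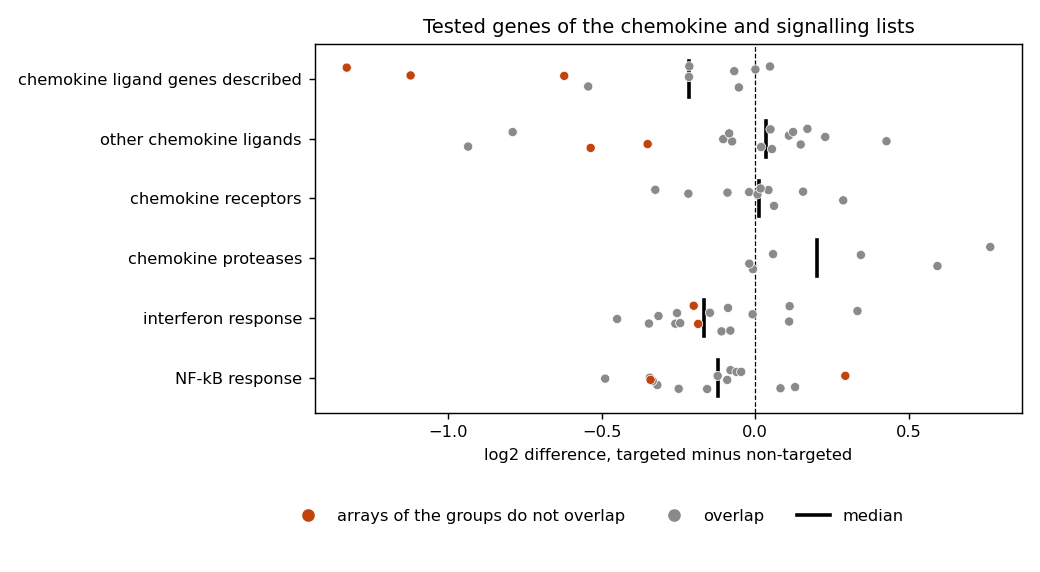
Log2 difference, targeted minus non-targeted (x axis), of every tested gene of the chemokine, protease, interferon and NF-kB lists (rows), with a black bar for each median and orange points for genes whose arrays did not overlap between the groups. The points of Cxcl10 and Cx3cl1, at -1.33 and -1.12, lie to the left of all other genes drawn.

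Markers of other cells were read on the same arrays. Of 8 endothelial markers 5 were dim, among them Pecam1, Kdr and Tek, and the summed intensity of all 8 was 435 to 551 on the targeted and 454 to 571 on the non-targeted arrays. The sum of 9 macrophage and monocyte markers was 545 to 705 against 551 to 677, with Adgre1, Itgam, Mrc1 and Vsig4 dim. For 8 T and NK cell markers, of which 7 were dim, it was 362 to 452 against 373 to 431. The sum of 7 B cell markers was 1814 to 3558 against 2706 to 3337, that of 5 general leukocyte markers 353 to 516 against 461 to 550, and that of 6 erythroid markers 462 to 574 against 498 to 566. The ranges of these 6 lists overlapped between the groups. Ebf1, at 10.35 to 11.50 against 10.72 to 11.37, made up most of the B cell sum. Of the 5 tested B cell markers, 4 were lower and 1 higher. Vpreb1 was at 8.33, 6.22 and 6.98 on the targeted arrays against 9.19, 7.81 and 9.16 (log2 difference -1.54, SE 0.57), which overlapped. Neutrophil markers summed to 909, 7764 and 11050 on the targeted and 8682 to 13590 on the non-targeted arrays. Of 7 tested, 6 were lower and 1 higher (median log2 difference -1.34). Fibroblast and periosteal markers summed to 13640, 4872 and 6041 against 4783 to 5510, and all 6 were higher (median log2 difference 0.95). Of these only Postn, 1 of 6, had separate arrays, at 7.27 to 10.44 against 5.51 to 7.26, beside 9.07% of all genes tested. Without targeted replicate 1 the log2 difference was -1.26 for Cxcl10, -1.13 for Cx3cl1, -0.46 for Ccl2 and -0.79 for Cxcl9. With all arrays it was -1.33, -1.12, -0.62 and -0.54. The 8 CAR cell markers were all lower in targeted cells, with a median log2 difference of -0.29, and their sum was 21930 to 28840 against 27440 to 32930. Lepr, the leptin receptor gene, was at 11.67 to 12.02 against 12.28 to 12.29. The 5 osteoblast markers with a value were all higher, summing to 14120 to 21690 against 10720 to 13420. Arrays were separate for 4 of the 5, against 9.07% of all genes tested, and overlapped for Ibsp (log2 difference 0.05). Bglap, Spp1 and Runx2 had no value. The part of these marker shifts in the ligand differences was not tested.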

How the data were processed

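The 10 genes and all lists were chosen with earlier results of these data known. The authors deposited intensities per probe set on a linear scale. The submitters' processing notes name RMA and, for software, Affymetrix Expression Console 1.4. Their annotation and genome build: not given in the sources used here. The log2 of each intensity was taken. Of 35556 probe sets, 21789 named 1 gene, 1621 named several and 12146 were not listed in the platform annotation; symbols were updated through Entrez identifiers in RefSeq (21698 matched). For each of 19938 genes the probe set with the highest mean over 6 arrays was used, and the 33.3% of genes with the lowest means were left out as dim. The other 13292 were fitted with limma 3.58.1 (R 4.3.3; lmFit and eBayes, no covariate), a procedure tested on simulated data. P-values are two-sided, with a threshold of 0.05 after Benjamini-Hochberg adjustment. Levels of different probe sets were not ranked against each other.

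Besides the 10 genes, the text names Dmp1, Xist and marker genes as checks, up to 3 tested genes of each list whose arrays did not overlap, and the 2 nearest profiles of each ligand with an SD above 0.4 over the 6 arrays. Receptors, proteases, neighbours and Cxcl13 were chosen after their values were seen. Alternatives were other filters, scalings, variance models and probe set rules, the replicate number as a block, and leaving out arrays; a covariate for Xist class and replicates 2 and 3 alone were added after seeing the data, as were the ratios without each array. Figures were drawn with matplotlib 3.10.9.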

Additional observations from a re-analysis of the deposited data

How the results depend on the processing

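Cxcl10, Cx3cl1, Ccl2, Cxcl9, Cxcl12 and Ccl7 were lower in targeted cells under all 18 alternatives, and 0 of the 10 ligand genes were called under any of them. The log2 difference ran from -1.49 to -1.17 for Cxcl10, -1.29 to -0.95 for Cx3cl1, -0.77 to -0.44 for Ccl2 and -0.79 to -0.42 for Cxcl9. Adjusted p ran from 0.326 to 1 for Cxcl10 and from 0.332 to 1 for Cx3cl1. The direction turned with quantile normalization for Ccl19 (0.0135) and Cxcl1 (0.005), with cyclic loess for Ccl19 (0.0111) and Cxcl1 (0.0107), and on replicates 2 and 3 alone for Ccl19 (0.0248) and Cxcl14 (-0.014); the cause was not tested. When each array was left out in turn the range was -0.20 to 0.042 for Ccl19, -0.092 to 0.0002 for Cxcl1, -0.069 to 0.077 for Cxcl14 and -0.019 to 0.083 for Cxcl16. Deviations of same-numbered arrays from their group means correlated at -0.256, -0.124 and 0.065 across genes, while Xist was high on the replicate 1 arrays of both groups, so whether a number marks a mouse is undecided. The main fit and the permutation tests treated the arrays as unpaired, and their p-values hold only for that case. A fixed replicate block called 1 gene over all genes, Dmp1 (limma adjusted p = 0.0153), and a random replicate block called 0. With Xist class as a covariate 1 gene, again Dmp1, was called. The adjusted p of Cxcl10 was 0.557 with the fixed block. No detection calls were used, so the levels of Ccl7 and Cxcl16 near the dim filter have no background set beside them.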
